A study of Mus musculus with 6 samples.

Results

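The genes described here are 8 transcription factors that give the gut epithelium its identity: the caudal homeobox factors Cdx1 and Cdx2, the nuclear receptors Hnf4a and Hnf4g, the GATA zinc finger factors Gata4 and Gata6, and the Krüppel-like factors Klf4 and Klf5. They were chosen by symbol, as 8 of the 19938 genes that had a probe set with 1 gene symbol on the array. Each had 1 probe set, shared with no other gene, and all 8 passed the filter on low signal. The tumors came from 2 groups of mice, all 3 weeks old, bred in part from a Tgfbr2flox/flox line that the methods give as C57BL/6J. In 3 of them (double knockout, CDX2P-G19Cre;Apcflox/flox;Tgfbr2flox/flox) Cre deleted Apc and Tgfbr2, and in the other 3 (Apc knockout, CDX2P-G19Cre;Apcflox/flox) it deleted Apc alone, so that deletion of Apc was common to all 6 tumors. Colon tumors were laser-dissected from frozen sections and profiled on Affymetrix Mouse Gene 1.0 ST arrays, 1 array per tumor. The aim was to see what loss of the TGF-β type II receptor adds to loss of Apc. In both groups the Cre recombinase was driven by a fragment of the human CDX2 promoter, and it acts only in those cells in which a run of G bases in its coding sequence slips back into frame. No wild-type colon was on these arrays.

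Cdx1 and Cdx2 set the posterior, intestinal fate of the gut endoderm, and loss of Cdx2 in the mouse embryo lets a foregut-like epithelium form in its place. Hnf4a and Hnf4g are closely related receptors that bind the same DNA element and maintain enterocyte genes, above all those of lipid handling and the brush border. Gata6 is expressed along the whole intestine, whereas Gata4 is a factor of the proximal small intestine that the normal colon largely lacks. Klf4 is found in differentiated cells of the upper crypt and surface, including goblet cells, and Klf5 in the dividing cells of the crypt.

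Promoter sequences were at hand for 3 of the 8 genes, and they are shown because these factors are known to bind one another's promoters and because Hnf4a is transcribed from a pair of start regions that 1 probe set reads together. Each is 300 bases, from 250 before to 50 after an annotated start in RefSeq on assembly GRCm38.p6, written in the direction of the gene. Capitals mark matches, on either strand, to short core motifs of the same 4 factor families and of TCF, the DNA-binding partner of β-catenin. For CDX the letters searched were TTTATG, the variant TTTATT or the variant TTTACG. For HNF4 they were CAAAGTCCA, or with other letters CAAAGGTCA. For GATA they were AGATAA, the variant TGATAA or the variant AGATAG. For KLF they were CCACCC, or the GC box GGGCGG. For TCF they were CTTTGAA, or with other letters CTTTGAT. The sequences lie at chr2:163506607-163506906 (plus strand, Hnf4a, upstream start), chr2:163546905-163547204 (plus strand, Hnf4a, downstream start, 40298 bases further on), chr5:147307200-147307499 (minus strand, Cdx2) and chr4:55532426-55532725 (minus strand, Klf4).
Hnf4a upstream start: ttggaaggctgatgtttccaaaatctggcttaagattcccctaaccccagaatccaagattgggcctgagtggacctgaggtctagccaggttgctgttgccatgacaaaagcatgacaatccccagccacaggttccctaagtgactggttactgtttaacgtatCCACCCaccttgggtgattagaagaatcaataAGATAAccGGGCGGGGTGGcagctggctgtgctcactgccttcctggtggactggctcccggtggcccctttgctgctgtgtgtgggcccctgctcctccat
Hnf4a downstream start: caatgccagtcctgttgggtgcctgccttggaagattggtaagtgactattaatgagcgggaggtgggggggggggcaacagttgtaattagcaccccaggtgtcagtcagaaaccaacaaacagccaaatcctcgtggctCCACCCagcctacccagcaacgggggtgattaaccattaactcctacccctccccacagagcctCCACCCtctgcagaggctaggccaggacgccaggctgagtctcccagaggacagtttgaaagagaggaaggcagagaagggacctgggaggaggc
Cdx2: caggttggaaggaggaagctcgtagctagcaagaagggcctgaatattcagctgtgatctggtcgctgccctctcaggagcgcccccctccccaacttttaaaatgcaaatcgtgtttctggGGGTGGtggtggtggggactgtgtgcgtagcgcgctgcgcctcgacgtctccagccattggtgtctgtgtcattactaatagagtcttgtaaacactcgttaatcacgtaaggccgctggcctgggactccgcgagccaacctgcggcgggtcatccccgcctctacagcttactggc
Klf4: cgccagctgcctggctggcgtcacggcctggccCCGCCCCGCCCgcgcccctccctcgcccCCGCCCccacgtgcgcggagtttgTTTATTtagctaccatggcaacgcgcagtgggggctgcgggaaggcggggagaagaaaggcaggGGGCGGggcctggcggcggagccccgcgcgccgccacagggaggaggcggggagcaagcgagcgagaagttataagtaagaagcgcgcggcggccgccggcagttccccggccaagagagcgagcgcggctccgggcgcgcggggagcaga
All 4 sequences held a KLF match, as did 52.7% of the 32817 promoters of this length in the same table. The upstream Hnf4a start had 3, at positions 167, 207 and 212 from the 5′ end, of which the last pair overlap, and the downstream start had 2, at positions 142 and 206. Cdx2 had 1, at position 123, and Klf4 had 4, at positions 34, 39, 62 and 150, of which the first pair overlap. A GATA match (AGATAA, position 199) was present at the upstream Hnf4a start alone among these sequences, a motif held by 25.1% of all promoters. A CDX match (TTTATT, position 86) was present in Klf4 alone, against 29.9% of all promoters. None of the 4 held the HNF4 or TCF letters, which 0.951% and 8.65% of all promoters held. These matches are letters in a window and were not tested for binding.

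Array medians lay between 7.68 and 7.80 on the log2 scale. The array of double knockout tumor 2 was unlike the others, with a correlation over probe sets of 0.956 to 0.968 with the other tumors, against 0.980 to 0.988 among the other 5. Log2 fold changes of the factors that rest on this tumor are given with and without it. Tgfbr2, deleted in the double knockout, had a log2 signal of 10.98, 10.35 and 10.47 in double knockout tumors, against 11.35, 11.37 and 11.09 in Apc knockout tumors. The probes were not placed relative to the deleted exon, so this is no check of the genotype. Adjusted over 19506 tested probe sets, limma made 0 calls, with 1092 sets at an unadjusted p under 0.05, and the methods' t-test also made 0, with 998.

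Of the 8 factors, 7 had a higher mean in double knockout tumors and 1, Cdx2, a lower one. Hnf4a and Gata6 were the only members in which every double knockout tumor lay above every Apc knockout tumor. Cdx2 was far down in a single tumor, double knockout tumor 2, in which Cdx1, Hnf4a, Hnf4g, Klf4 and Klf5 were at their highest. None of the 8 passed the adjusted threshold in limma, as for 0% of all tested sets. At an unadjusted p under 0.05, 1 of 8 was higher (Hnf4a), against 1.78% of all tested sets, and 0 were lower, against 3.82%. Groups that did not overlap, with double knockout tumors higher, were found in 2 of 8, against 5.25% of all tested sets, and with double knockout tumors lower in 0 of 8, against 6.94%. The median log2 fold change of the 8 was 0.38, and 0.33 without double knockout tumor 2, against 0.01 over all tested genes, and 52.3% of all sets were above 0. With 8 genes chosen by name, these shares describe the members only. In bulk RNA, fewer cells that express a gene and less of its RNA per cell cannot be told apart.

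**Figure D1:**
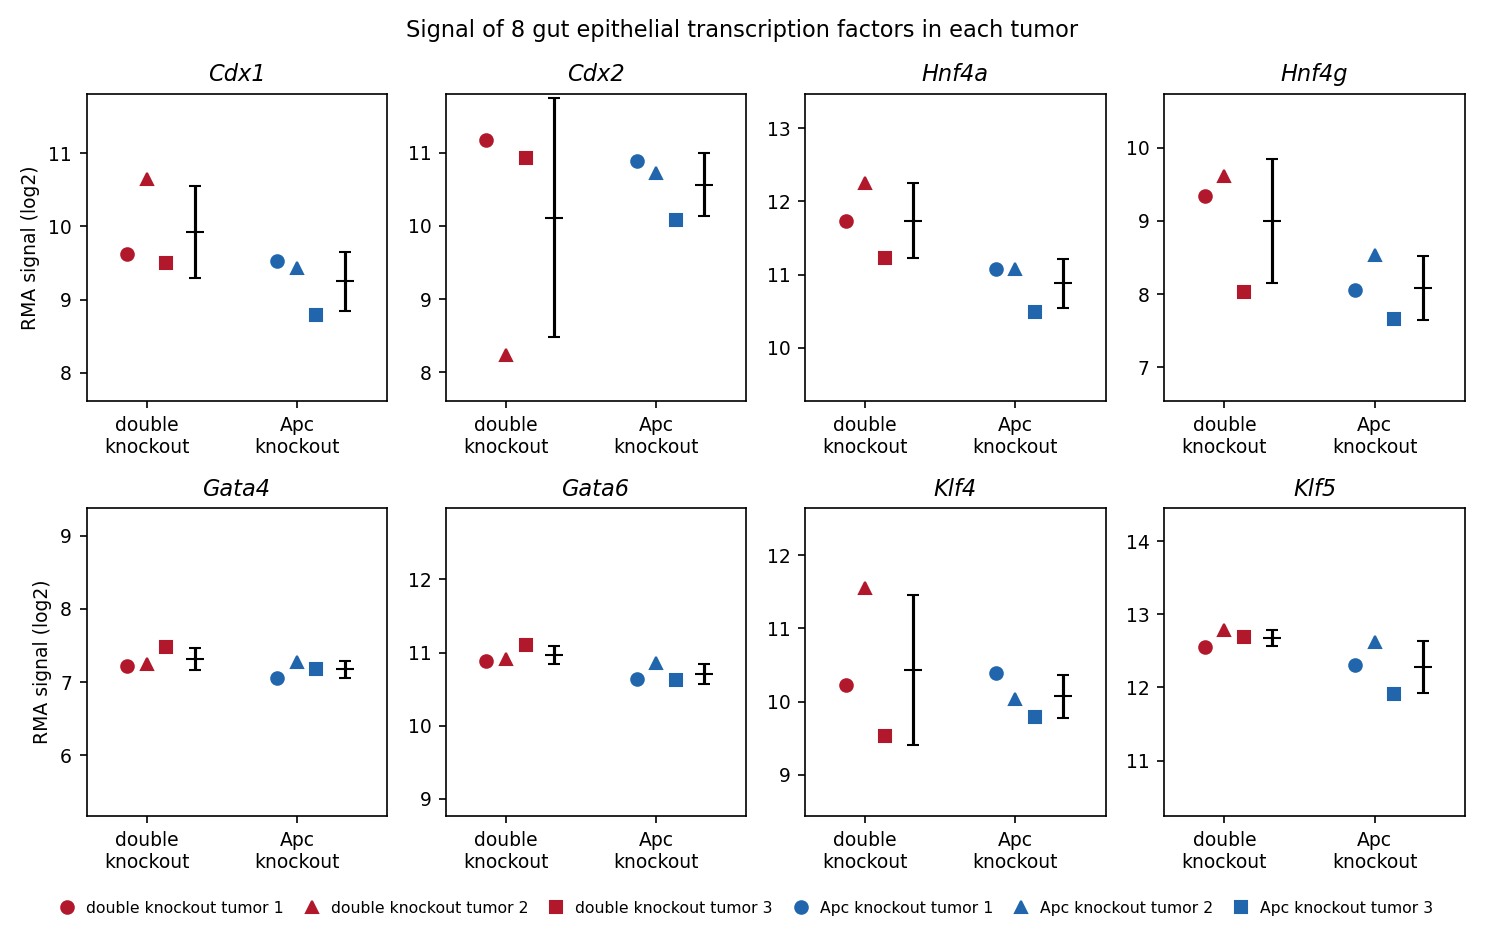
Log2 RMA signal of each of the 8 factors, 1 panel per gene, with double knockout tumors (red) left of Apc knockout tumors (blue). Each symbol is 1 tumor, bars are the mean ± SD of 3 tumors, and all panels span the same log2 range, so that the low double knockout tumor 2 in Cdx2 (8.24) and the narrow spread of Gata4 and Gata6 can be read on 1 scale.

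Cdx2, the caudal factor that is most often used to mark intestinal epithelium, had a log2 signal of 11.18, 8.24 and 10.93 in double knockout tumors 1, 2 and 3, against 10.89, 10.73 and 10.08 in Apc knockout tumors 1, 2 and 3. Tumors 1 and 3 of the double knockout were the highest of the 6 and its tumor 2 the lowest by a wide margin, so the groups overlapped at both ends. The means were 10.11 ± 1.63 in double knockout tumors and 10.57 ± 0.43 in Apc knockout tumors (SD, n = 3 each), a log2 fold change of −0.45 (standard error 0.79, 95% confidence interval −2.37 to 1.46, adjusted p = 0.909 in limma; exact permutation p = 1, two-sided). The log2 fold change became 0.49 when double knockout tumor 2 was left out (standard error 0.26, adjusted p = 0.963 in limma), and both remaining double knockout tumors lay above every Apc knockout tumor. The signal of double knockout tumor 2 was 7.03-fold lower than the mean of the other 2 double knockout tumors. It differed from the mean of the other 5 tumors by −2.52 on the log2 scale, and 0.461% of tested sets were as far down in that tumor. The range of Cdx2 over the 6 tumors, 2.94, was reached by 1.88% of tested sets and was the widest of the 8 factors. Over the 5 tumors without double knockout tumor 2 the range was 1.10.

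Cdx1, a target of Wnt signaling and of Cdx2 in the mouse intestine, had a log2 signal of 9.63, 10.64 and 9.49 in double knockout tumors, against 9.53, 9.43 and 8.79 in Apc knockout tumors. Here double knockout tumor 2 was the highest, Apc knockout tumor 3 was the lowest, and the other 4 lay close together across both groups. The log2 fold change was 0.67 (standard error 0.36, 95% confidence interval −0.20 to 1.54, adjusted p = 0.821 in limma; exact permutation p = 0.2), and 0.31 without double knockout tumor 2. The pair thus ran apart in 1 tumor, double knockout tumor 2. It held the first place of 6 in Cdx1 and the last in Cdx2, differing from the mean of the other 5 by 1.27 in Cdx1 and −2.52 in Cdx2 on the log2 scale. In the other 5 the order was nearly the same for both genes, with double knockout tumor 1 at the top and Apc knockout tumors 2 and 3, in that order, at the bottom.

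**Figure D2:**
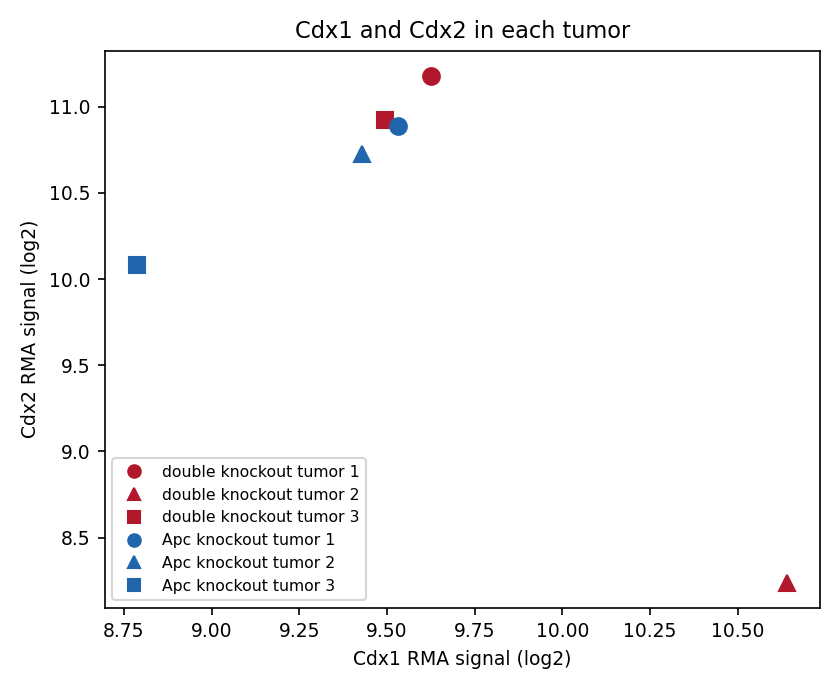
Log2 RMA signal of Cdx1 (x axis) against Cdx2 (y axis), 1 point per tumor, with double knockout tumors in red and Apc knockout tumors in blue. Double knockout tumor 2 lies alone at the lower right (10.64 in Cdx1, 8.24 in Cdx2), and the other 5 tumors run together from Apc knockout tumor 3 to double knockout tumor 1.

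Hnf4a, the receptor required for enterocyte differentiation, had a log2 signal of 11.73, 12.26 and 11.23 in double knockout tumors, against 11.07, 11.07 and 10.49 in Apc knockout tumors. The groups did not overlap, and the lowest double knockout tumor stood just above the highest Apc knockout tumors. The means were 11.74 ± 0.52 in double knockout tumors and 10.88 ± 0.34 in Apc knockout tumors (SD, n = 3 each). The double knockout mean of Hnf4a was therefore 1.81 times the Apc knockout mean (95% confidence interval 1.10 to 3.00), a log2 fold change of 0.86 with a standard error of 0.30. Its unadjusted limma p was 0.0272, place 616 of 19506, and its adjusted p was 0.821. The exact permutation p was 0.1, the smallest that 3 tumors against 3 allow, and the methods' t-test, an equal-variance test on the same 3 and 3 tumors, did not pass at the unadjusted threshold. Leaving out 1 tumor at a time gave log2 fold changes between 0.60 (double knockout tumor 2 left out) and 1.12 (double knockout tumor 3 left out).

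Hnf4g, which in the mouse small intestine shares most of its binding sites with Hnf4a, had a log2 signal of 9.34, 9.61 and 8.03 in double knockout tumors, against 8.05, 8.53 and 7.67 in Apc knockout tumors. Double knockout tumors 1 and 2 were the highest, while double knockout tumor 3 fell among the Apc knockout tumors. Its log2 fold change, 0.91, was the largest of the 8 factors, with a standard error of 0.45 (95% confidence interval −0.18 to 2.01, adjusted p = 0.821 in limma; exact permutation p = 0.3). Leaving out double knockout tumor 2 gave 0.61, leaving out double knockout tumor 3 gave 1.39, and in the second case the groups did not overlap. In both receptors double knockout tumor 2 was first, double knockout tumor 1 second and Apc knockout tumor 3 last.

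Gata6, the GATA factor of the colon, had a log2 signal of 10.88, 10.91 and 11.11 in double knockout tumors, against 10.64, 10.86 and 10.63 in Apc knockout tumors. The groups did not overlap, though only a narrow step separated double knockout tumor 1 from Apc knockout tumor 2. The means were 10.97 ± 0.12 in double knockout tumors and 10.71 ± 0.13 in Apc knockout tumors (SD, n = 3 each), and the log2 fold change was 0.26 (standard error 0.12, 95% confidence interval −0.04 to 0.55, adjusted p = 0.821 in limma; exact permutation p = 0.1, the smallest possible). Gata4 had a log2 signal of 7.22, 7.25 and 7.49 in double knockout tumors, against 7.06, 7.28 and 7.18 in Apc knockout tumors. Its groups overlapped, with a log2 fold change of 0.14 (standard error 0.12, 95% confidence interval −0.15 to 0.44, adjusted p = 0.833 in limma). The mean of the Gata4 set, 7.25, lay just above the 40th percentile of all probe sets (7.15), so a stricter filter would have come close to removing it. These were the steadiest of the 8: over all 6 tumors the range was 0.48 for Gata6 and 0.43 for Gata4. They were also the members in which double knockout tumor 2 did not stand out, at 0.09 and 0.01 above the mean of the other 5, and double knockout tumor 3 was the highest in both.

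Klf4, which promotes cell cycle exit in the colonic epithelium, had a log2 signal of 10.22, 11.55 and 9.53 in double knockout tumors, against 10.38, 10.04 and 9.79 in Apc knockout tumors. The highest and the lowest tumor were both double knockouts, with the Apc knockout tumors between them. The log2 fold change was 0.36 (standard error 0.50, 95% confidence interval −0.87 to 1.59, adjusted p = 0.889 in limma; exact permutation p = 0.8), and without double knockout tumor 2 it was −0.20 (adjusted p = 0.991). In that tumor Klf4 was 3.20-fold higher than the mean of the other 2 double knockout tumors. Klf5, the Krüppel-like factor of dividing crypt cells, had a log2 signal of 12.56, 12.78 and 12.69 in double knockout tumors, against 12.30, 12.62 and 11.91 in Apc knockout tumors. Only Apc knockout tumor 2 reached into the range of the double knockout tumors, which were tightly grouped. The means were 12.67 ± 0.11 in double knockout tumors and 12.28 ± 0.35 in Apc knockout tumors (SD, n = 3 each), a log2 fold change of 0.40 (standard error 0.19, 95% confidence interval −0.07 to 0.86, adjusted p = 0.821 in limma; exact permutation p = 0.2). It was 0.57 without Apc knockout tumor 2, when the groups did not overlap, and 0.21 without Apc knockout tumor 3.

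**Figure D3:**
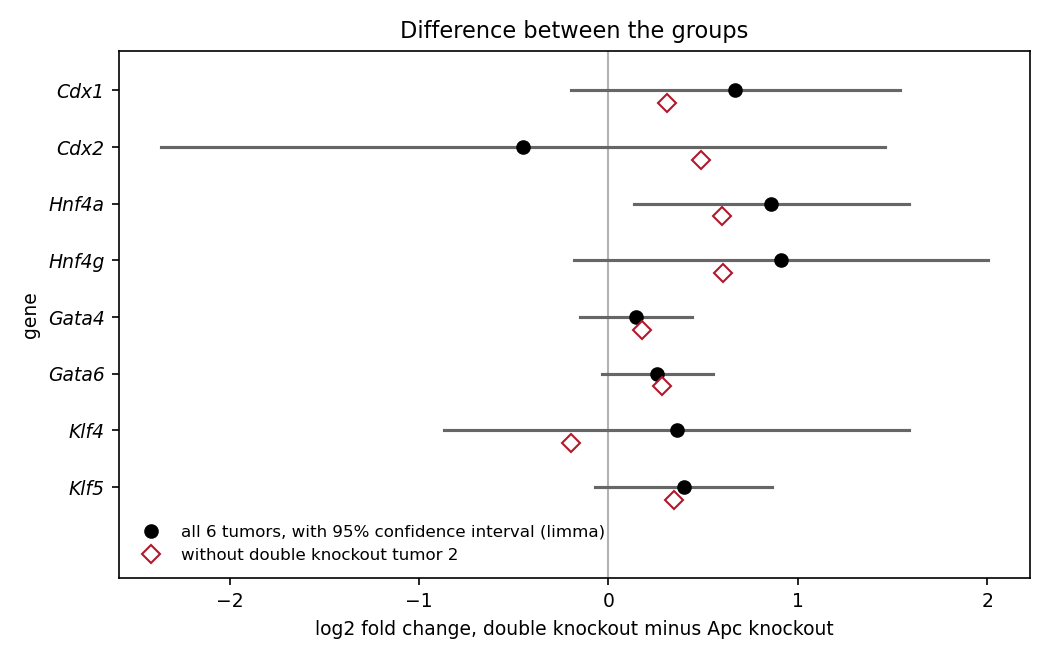
Log2 fold change, double knockout minus Apc knockout, of each factor (y axis, 1 gene per line). Black points with lines are the limma estimate from all 6 tumors and its 95% confidence interval, and open red diamonds are the estimate without double knockout tumor 2. Cdx2 and Klf4 change sign without that tumor, and the interval of Hnf4a alone lies wholly above 0.

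A few tumors held most of the highest and lowest values. Tumor 2 of the double knockout was the highest in 5 members and the lowest in 1, against 28.96% and 28.54% of all tested genes. Apc knockout tumor 3 was the lowest in 5 members (Cdx1, Hnf4a, Hnf4g, Gata6 and Klf5), for which no share over all genes was taken. Relative to the mean of the other 5 tumors, double knockout tumor 2 was higher by 1.56 in Klf4, 1.29 in Hnf4g, 1.27 in Cdx1, 1.14 in Hnf4a and 0.36 in Klf5 on the log2 scale. Of all tested sets, 2.54% were as far up in that tumor as Klf4 and 3.94% as far up as Hnf4a. Double knockout tumor 3 differed from it in several members, being the lowest in Klf4 and the highest in Gata4 and Gata6.

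**Figure D4:**
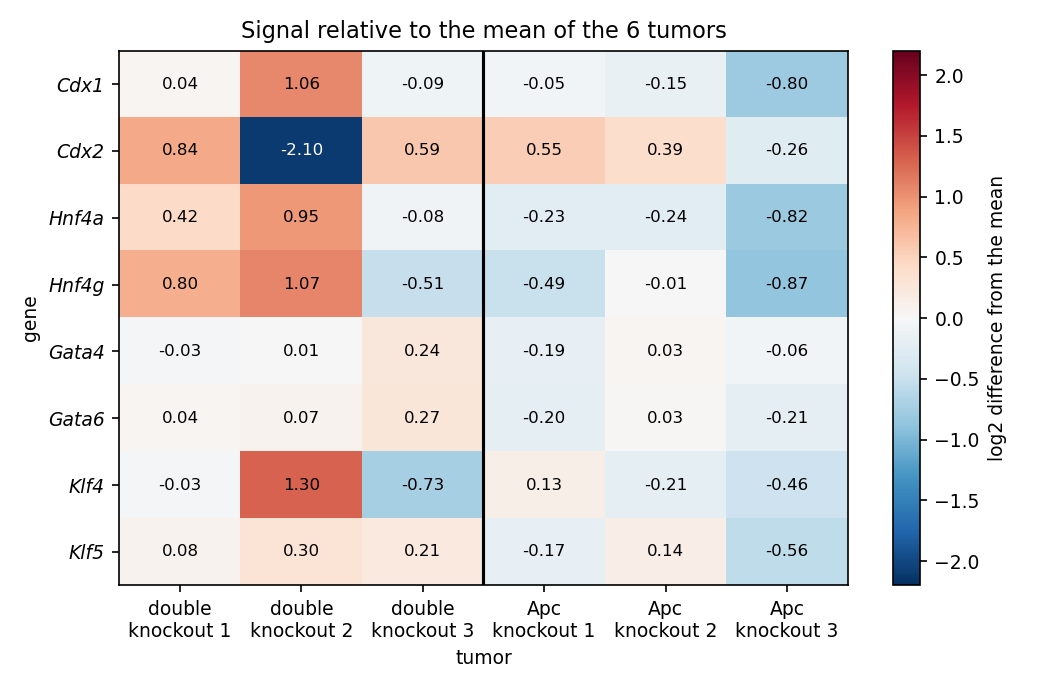
Log2 signal of each factor (rows) in each tumor (columns) minus the mean of that gene over the 6 tumors, with the value in each cell; red is above and blue below the mean, and the line separates double knockout (left) from Apc knockout tumors (right). Double knockout tumor 2 reads −2.10 in Cdx2 and 1.30 in Klf4, and Apc knockout tumor 3 is below the mean in all 8 genes.

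Several marker lists of cell type and differentiation stood apart in double knockout tumor 2, and whether the tissue composition differed was not tested. The mean log2 signal of 17 colonocyte differentiation genes was 10.00, 11.10 and 9.05 in double knockout tumors 1, 2 and 3, against 10.07, 9.31 and 9.78 in Apc knockout tumors. Genes of this list include Car1, a carbonic anhydrase, Muc3, a surface mucin, Emp1, and Slc26a3, a chloride exchanger. In double knockout tumor 2, 12 of the 17 were at their highest and 2, Slc9a3 and Tmigd1, at their lowest. Emp1 differed there from the mean of the other 5 tumors by −0.44 on the log2 scale. The mean of 15 crypt stem cell genes was 10.80, 8.84 and 10.67 in double knockout tumors, against 11.08, 11.15 and 10.77 in Apc knockout tumors, and 11 of the 15 were at their lowest in double knockout tumor 2. Lgr5, the receptor that marks crypt base stem cells, was at 11.40, 8.63 and 10.33 in double knockout tumors, against 11.65, 12.13 and 10.92 in Apc knockout tumors. The Wnt target Notum was at 11.89, 8.24 and 12.06 in double knockout tumors, against 12.62, 11.97 and 12.66 in Apc knockout tumors. Cdx2 thus had its low value in the same tumor as Lgr5 and Notum. Cdx1, also a Wnt target, had its highest value there (10.64). Ascl2, Olfm4, Cdca7 and Lrig1 of the crypt list were not at their lowest in that tumor.

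The mean of 12 smooth muscle markers was 8.69, 10.13 and 8.19 in double knockout tumors, against 8.68, 8.17 and 8.76 in Apc knockout tumors, and 11 of the 12 were at their highest in double knockout tumor 2. Acta2, smooth muscle actin, was at 11.59, 12.90 and 11.10 in double knockout tumors, against 11.52, 10.82 and 11.48 in Apc knockout tumors. Over all tested genes, this tumor was the highest in 28.96% and the lowest in 28.54%. The 11 epithelial markers, which check that the tissue is epithelium, had a mean of 12.38, 12.74 and 12.20 in double knockout tumors, against 12.47, 12.34 and 12.13 in Apc knockout tumors. Apc knockout tumor 3, the lowest in 5 of the 8 factors, was also the lowest in this mean. With all arrays scaled to the epithelial mean, a setting chosen after the values were seen, the median over all tested sets was −0.12, against 0.01 unscaled, and the log2 fold changes were 0.54 for Cdx1, −0.58 for Cdx2, 0.73 for Hnf4a, 0.79 for Hnf4g, 0.02 for Gata4, 0.13 for Gata6, 0.23 for Klf4 and 0.27 for Klf5. Cdx1 and Hnf4a were then the members without overlap, both higher, against 1.9% of all tested sets higher and 4.05% lower under this scaling, and Gata6 overlapped.

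All 10 neutrophil markers, granule and receptor genes, had a lower mean in double knockout tumors, with list means of 7.99, 9.10 and 8.62 in double knockout tumors, against 9.82, 9.74 and 9.21 in Apc knockout tumors and a median log2 fold change of −0.92, or −1.48 when double knockout tumor 2 was left out. At an unadjusted p under 0.05, 4 of the 10 were lower, against 3.82% of all tested sets. Of the 15 crypt stem cell genes, 2 were higher and 13 lower in the double knockout. At an unadjusted p under 0.05, 3 of the 15 were lower, against 3.82% of all tested sets. Without overlap, 5 were lower, against 6.94% of all tested sets. Their median was −1.04, and −0.41 when double knockout tumor 2 was left out. The median was 0.19 for the colonocyte list and 0.49 for the smooth muscle list, and these turned to −0.25 and −0.11 when that tumor was left out. It was 0.13 for the epithelial list, and 0.0048 without that tumor. The medians of the remaining lists were −0.01 for 10 fibroblast, −0.05 for 10 endothelial, −0.12 for 9 macrophage and 0.23 for 7 lymphocyte markers. None of the marker genes passed the adjusted threshold in limma. The part of tissue composition in the values of the 8 factors was not tested.

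**Figure D5:**
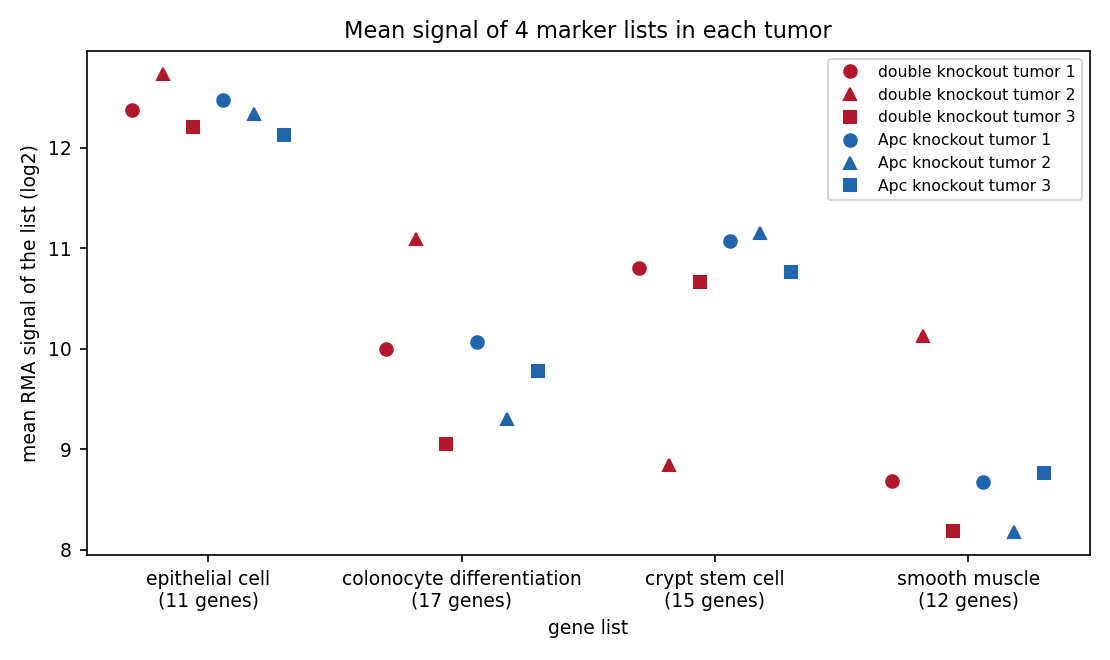
Mean log2 RMA signal of 4 marker lists (x axis, number of genes in brackets) in each tumor, with double knockout tumors (red) left of Apc knockout tumors (blue). Double knockout tumor 2 (red triangle) is the highest in the colonocyte (11.10) and smooth muscle (10.13) lists and the lowest in the crypt stem cell list (8.84), while the epithelial list spans 12.13 to 12.74.

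Among 16 other transcription factors of the gut epithelium, 11 were higher and 5 lower in the double knockout, the median log2 fold change being 0.06, and −0.03 without double knockout tumor 2. None passed the adjusted threshold in limma, and 1 of 16 was lower at an unadjusted p under 0.05, against 3.82% of all tested sets. That was Foxa1, a forkhead factor that opens chromatin for other regulators. Its log2 signal was 11.50, 11.33 and 11.47 in double knockout tumors, against 11.78, 11.61 and 11.71 in Apc knockout tumors (log2 fold change −0.27, standard error 0.10, unadjusted p = 0.0402 and adjusted p = 0.821 in limma), with no overlap. Sox9, a crypt base and progenitor factor, had a log2 fold change of −0.31, Tcf7l2, the main TCF of the gut, of 0.17, and Isx, an intestinal homeobox factor, of 0.49. Tcf7l2 was higher in every double knockout tumor than in any Apc knockout tumor.

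The 8 transcription factors listed for stomach and foregut, not all of them particular to these organs, gave 3 higher and 5 lower. Their median was −0.18, and −0.07 without double knockout tumor 2. None passed at an unadjusted p under 0.05. Sox2, a determinant of stomach and esophagus, had a log2 signal of 8.03, 7.15 and 8.50 in double knockout tumors, against 11.00, 8.31 and 9.07 in Apc knockout tumors (log2 fold change −1.57, standard error 0.72, adjusted p = 0.821 in limma). It was high in Apc knockout tumor 1 and at its lowest in double knockout tumor 2, the tumor with the lowest Cdx2 signal. Gata5, a GATA factor of the developing heart and endoderm, was at 8.83, 7.52 and 9.34 in double knockout tumors, against 9.59, 10.24 and 9.14 in Apc knockout tumors, again with its lowest value in double knockout tumor 2. Over the whole list, 4 of the 8 were at their lowest and 4 at their highest in that tumor, but by unlike amounts. Gata5, Sox2 and Foxq1 differed there from the mean of the other 5 tumors by −1.91, −1.83 and −1.39. Sox21 was at 8.52, against 9.25 to 9.77 in the other tumors. The 4 at their highest, Barx1, Nkx2-1, Nkx6-3 and Pdx1, were up by 0.29, 0.29, 0.16 and 0.16 in that tumor. Their mean signals over the 6 tumors were 7.73, 6.68, 7.19 and 6.41, against 8.68 or more for the 4 at their lowest. Foxq1, a forkhead factor of gastric surface cells, had a log2 fold change of −0.63 (−0.21 without that tumor), and Nkx6-3, a homeobox factor of the gastric antrum, of 0.14.

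Of 19 genes known as Cdx2 targets that passed the filter on level, 15 were higher and 4 lower, with a median of 0.25. Without double knockout tumor 2 the median was 0.09. None passed the adjusted threshold in limma. At an unadjusted p under 0.05, 1 of 19 was higher, against 1.78% of all tested sets, and it was Hnf4a itself. In double knockout tumor 2, in which Cdx2 was lowest, 14 of the 19 were at their highest and 1 at its lowest. Over all tested genes these shares were 28.96% and 28.54%. The members Cdx1 and Hnf4a, described above, are on this list and among those at their highest. Vil1, the actin bundler of microvilli, was at 11.59, 12.05 and 11.28 in double knockout tumors, against 11.33, 11.28 and 10.73 in Apc knockout tumors, a log2 fold change of 0.53. Abcb1a, a drug efflux pump of the apical membrane, was at 10.87, 11.27 and 9.95 in double knockout tumors, against 10.00, 10.22 and 9.96 in Apc knockout tumors, a log2 fold change of 0.64. With double knockout tumor 2 left out, the log2 fold change was 0.32 for Vil1 and 0.35 for Abcb1a. Several of these genes are also differentiation genes of the colonocyte list.

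Of 12 genes known as Hnf4 targets, 9 were higher and 3 lower with a median of 0.06, and 0.11 without double knockout tumor 2. None passed at an unadjusted p under 0.05. Apoc3, an apolipoprotein, had a log2 fold change of 0.29 with no overlap between groups, and Mttp, which loads lipid onto apolipoprotein B, one of −0.25. The mean signal of Apoc3, 6.64, lay under the 40th percentile of all probe sets (7.15). Cpt1a, which carries fatty acids into mitochondria for oxidation, had a log2 fold change of 0.41, and 0.13 with double knockout tumor 2 left out. Ttr, the thyroid hormone carrier transthyretin, was at 7.05, 10.41 and 6.59 in double knockout tumors, against 7.02, 6.80 and 6.35 in Apc knockout tumors. Its log2 fold change, 1.29, rested on double knockout tumor 2 and was 0.09 without it.

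The 17 brush border structure genes, which Hnf4 factors maintain in the mouse intestine, gave 13 higher and 4 lower with a median of 0.25, and 0.07 without double knockout tumor 2. Of these 17, 1 was higher at an unadjusted p under 0.05, against 1.78% of all tested sets, and none passed the adjusted threshold in limma. That gene was Slc9a3r1, a scaffold that ties transporters to the microvillar cytoskeleton, at 10.58, 10.87 and 10.47 in double knockout tumors, against 10.28, 10.21 and 10.22 in Apc knockout tumors (log2 fold change 0.40, standard error 0.13, unadjusted p = 0.0209 and adjusted p = 0.821 in limma). Myo1a, the myosin that joins the actin core to the microvillar membrane, had a log2 fold change of 0.97, and Slc9a3, the apical sodium-proton exchanger, of −1.01. With double knockout tumor 2 left out these were 0.55 for Myo1a and −0.53 for Slc9a3. In double knockout tumor 2, 12 of the 17 were at their highest, against 28.96% of all tested genes.

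Of 8 genes known to be regulated by Gata4 or Gata6, 5 were higher and 3 lower with a median of 0.02 (0.09 without double knockout tumor 2). The list does not separate genes that these factors raise from genes that they lower. At an unadjusted p under 0.05, 1 of the 8 was higher, against 1.78% of all tested sets. It was Nox1, the NADPH oxidase of the colon, at 11.47, 11.31 and 11.34 in double knockout tumors, against 9.68, 11.02 and 9.02 in Apc knockout tumors (log2 fold change 1.47, standard error 0.48, unadjusted p = 0.0220 and adjusted p = 0.821 in limma). Its groups did not overlap, and the spread lay in the Apc knockout tumors. Lgr5, on this list for its dependence on Gata6 in mouse adenomas, had a log2 fold change of −1.44, and −0.70 without double knockout tumor 2. Fabp6, the ileal bile acid carrier, had a log2 fold change of 0.74 (0.33 without that tumor), and Adamdec1, a secreted protease, of −0.30. The mean signal of Fabp6, 6.33, lay under the 40th percentile of all probe sets (7.15).

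Of 13 genes known to be regulated by Klf4 or Klf5, 4 were higher and 9 lower with a median of −0.19, and −0.09 without double knockout tumor 2. The list does not separate genes that these factors raise from genes that they lower. At an unadjusted p under 0.05, 1 of the 13 was lower, against 3.82% of all tested sets. It was Pdgfa, the platelet-derived growth factor A chain, at 10.30, 10.39 and 10.14 in double knockout tumors, against 10.89, 10.72 and 10.79 in Apc knockout tumors. Its log2 fold change of −0.52 (standard error 0.11) had an unadjusted limma p of 0.00309 and an adjusted p of 0.821, and the groups did not overlap. Ctnnb1, which encodes β-catenin, had a log2 fold change of −0.22 and Krt4, a keratin of stratified epithelia, of −0.28. With double knockout tumor 2 left out these were −0.13 for Ctnnb1 and −0.09 for Krt4. Krt4 had a mean signal of 6.61, under the 40th percentile of all probe sets (7.15).

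The genes whose log2 signal followed each factor most closely over the 6 tumors were ranked by Pearson correlation, as a description without a test, since 6 tumors share few degrees of freedom and double knockout tumor 2 carries much of the variation. For Cdx2 the closest was B4galnt2, the glycosyltransferase that makes the Sda antigen of colonic mucins (r = 0.999, and 0.996 without double knockout tumor 2). Its log2 signal was 12.66, 9.72 and 12.40 in double knockout tumors, against 12.28, 12.21 and 11.48 in Apc knockout tumors, the same order of tumors as for Cdx2. The ribonuclease gene Ang6 (r = 0.996) and Agmat, an agmatinase (r = 0.993), came next. For Klf4 the closest was Tfcp2l1, a grainyhead-related transcription factor (r = 0.999, and 0.995 without double knockout tumor 2). It was at 9.87, 12.26 and 8.59 in double knockout tumors, against 10.01, 9.53 and 8.99 in Apc knockout tumors, also in the same order as for Klf4. Myo1d, an unconventional myosin, and Lmbrd1, a lysosomal vitamin B12 exporter, followed at 0.997 each.

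For Hnf4a the closest were Napsa, an aspartic protease (r = 0.996), Slc25a5, a mitochondrial ADP/ATP carrier (r = 0.994), and Ptges3l (r = 0.993). For Hnf4g they were Tcte1 (r = 0.990), the ETS factor Fli1 (r = 0.989) and the activin receptor Acvr2a (r = 0.985). Tcte1 spanned only 5.93 to 6.10 over the 6 tumors, near the filter level of 5.88. Ptges3l (6.31 to 6.94) and Ang6 (6.43 to 7.20) were also low in signal. Cdx1 was followed by Gpr89 (r = 0.999), the tetraspanin Tspan2 (r = 0.998) and Vps35, a retromer subunit (r = 0.997). Gata6 was followed by the zinc finger gene Zfp35 (r = 0.998), and Gata4 by Gm15760 (r = 0.988). Klf5 was followed by the nucleoporin gene Nupl1 (r = 0.996). How rare such values are differed between members. Of 18350 probe sets, 361 reached a correlation of 0.95 with Cdx1 and 338 with Klf4, against 153 with Hnf4a, 98 with Klf5, 79 with Cdx2, 55 with Hnf4g, 14 with Gata6 and 6 with Gata4.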

How the data were processed

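The authors hybridized total RNA of 6 laser-dissected tumors to Affymetrix Mouse Gene 1.0 ST arrays after an RNA integrity check, and the deposited values are log2 signals after RMA, named in the submitters' processing notes (background correction, quantile normalization, probe summary). Neither the RMA version nor the annotation build is named in the sources used here. RMA normalization assumes like signal distributions, so shifts are relative to the other genes. Of 35556 probe sets, 21789 had 1 gene symbol, 1621 several and 12146 none. Tested were 19506 sets with a symbol whose mean reached the 20th percentile (5.88), in place of a 20% reproducibility cut-off whose measure the methods leave unnamed. The test was limma 3.58.1 (lmFit, eBayes; R 4.3.3) of double knockout minus Apc knockout, two-sided, no covariates, Benjamini-Hochberg adjustment over all tested sets, threshold 0.05, tested on simulated data. Exact permutation tests of 3 tumors against 3 cannot go below 0.1. Other values came from Python 3.11.15 with pandas 2.3.3 and scipy 1.17.1.

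Groups and replicate numbers came from the sample titles, which number the replicates within each group and name no animals. A gene with several probe sets was read by the one with the highest mean. Genes named are the 8 members, the 4 genes of each list with the smallest limma p, up to 3 markers of each cell type with the highest mean or that a result turns on (Slc26a3, Lgr5, Notum and Acta2 among them), and the 3 sets closest to each member by Pearson correlation. The members and lists were chosen with earlier results of these data known. Alternatives were the methods' t-test, other filters, all probe sets, median centring, a further quantile normalization, trended robust variances, a block for the replicate number, leaving out each tumor, and, chosen after the values were seen, scaling to 11 epithelial markers. Promoters came from RefSeq (GRCm38.p6) and are shown for 3 of 8 members, with genes on chromosome 18 left out. Some genes of the lists were not analysed here. Precision is limited by the number of arrays.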

Additional observations from a re-analysis of the deposited data

How the results depend on the processing

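Under every alternative run, limma or the methods' t-test made 0 adjusted calls among all probe sets, with 669 to 1771 sets at an unadjusted p under 0.05. For Hnf4a the unadjusted p was 0.0272 in limma and 0.0728 in the methods' t-test, whose adjusted p was 0.857. Without double knockout tumor 2, Cdx2 turned to 0.49 and Klf4 to −0.20, and these were the only changes of direction among the 8 members over 16 alternatives each. With 1 tumor left out at a time, log2 fold changes ranged from 0.31 to 0.88 for Cdx1, −0.98 to 0.49 for Cdx2, 0.60 to 1.12 for Hnf4a, 0.61 to 1.39 for Hnf4g, 0.06 to 0.20 for Gata4, 0.19 to 0.33 for Gata6, −0.20 to 0.81 for Klf4 and 0.21 to 0.57 for Klf5. The count of members without overlap, 2 with all tumors, ranged from 2 to 4, the highest without double knockout tumor 3 (against 12.4% of all sets) and without Apc knockout tumor 2 (against 10.3%), where fewer tumors make separation easier. Deviations from the group means correlated at −0.20, −0.06 and 0.09 between same-numbered tumors. With 3 tumors a group these correlations cannot settle whether the replicate numbers pair the tumors. The fit with the replicate number as a block made 0 adjusted calls and 1350 unadjusted. In limma it gave Hnf4a an adjusted p of 0.593, with log2 fold changes as in the fit without it. Unadjusted p in that limma fit was 0.0043 for Hnf4a, 0.0117 for Hnf4g and 0.0472 for Cdx1, and above 0.05 for the other members. Scaling to the epithelial markers, chosen after the values were seen, kept the direction of all 8 members. That list shares Lgals4 and Krt20 with the Cdx2 targets and Krt19 with the genes regulated by Klf4 or Klf5. In double knockout tumor 2, 9 of its 11 genes were at their highest. The scaling is therefore not independent of the factors. With 3 tumors a group and 1 tumor apart, differences the size of those of Hnf4g or Cdx1 could not be told from the spread between tumors.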
